A study of Mus musculus with 6 samples.

Results

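The 9 genes described here encode receptors for dopamine and noradrenaline. They were taken by symbol, as *Drd1*, *Drd2*, *Drd4*, *Drd5*, *Adra1a*, *Adra1b*, *Adra1d*, *Adra2a* and *Adrb1*, and each matched a single one of the 32285 genes counted. Nuclei came from the prelimbic cortex, a part of the medial prefrontal cortex, of male C57BL/6 mice. The mothers either had running wheels in their cage after giving birth (Run) or had none (Sed), and the sons were weaned into group housing (GH) or single housing (SI). There were 6 single-nucleus libraries, each a pool of 3 males, so that no value belongs to 1 animal. Cohort 1 held a RunGH and a SedGH library from mice with earlier behavioural testing, and cohort 2 held RunGH, SedGH, RunSI and SedSI libraries from mice without it. The paper describes the Run and Sed males used from cohort 1 as top and bottom in rank inside their groups. Run against Sed in cohort 1 may thus also carry this choice by rank. Within a cohort each group was 1 pooled library, SI existed only in cohort 2, and cohort cannot be told apart from earlier testing, choice by rank, library preparation or depth. The labels give postnatal day 21 in an age field. In the paper that day is weaning, when group or single housing began, and the males were adult at collection. Day 21 is therefore not read as the age at collection.

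Catecholamine receptors sit in the cell membrane and act through G proteins. *Drd1* and *Drd5* encode the D1-like receptors, which raise cyclic AMP, and *Drd2* and *Drd4* encode D2-like receptors, which lower it. Among the adrenergic receptors, the alpha-1 genes *Adra1a*, *Adra1b* and *Adra1d* act through Gq and phospholipase C, *Adra2a* lowers cyclic AMP and is also found on noradrenergic terminals, and *Adrb1* raises cyclic AMP. Dopamine axons from the midbrain and noradrenaline axons from the locus coeruleus both reach the prefrontal cortex, where these receptors are known for their part in working memory and arousal.

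In all, 42595 nuclei passed the filters, between 4997 and 9936 a library, with a median of 1637 to 6250 unique molecular identifiers (UMIs, each taken as 1 captured RNA molecule) a nucleus and 11217933 to 52301726 UMIs in the summed nuclei of a library. Pyramidal neurons made up 79.1% of the nuclei and inhibitory neurons 10.4%. The named classes used here were 15, found by clustering each cohort apart on genes that did not include the receptors. Of the pyramidal classes, 6 were named from marker genes (layer 2/3-like, mid-layer-like, layer 5-like with *Chst8* and *Npsr1*, near-projecting-like, layer 6 corticothalamic-like and deep-layer-like with *Oprk1* and *Rxfp1*) and 1 is called by its leading genes *Il1rapl2* and *Spink13*. The inhibitory classes were PV-like, SST-like, VIP-like and NPY/Lamp5-like, of which the PV-like and SST-like classes did not hold wholly matching clusters in the 2 cohorts (a cluster with *Crybg1*, *Crhr2* and *Snx31* was SST-like in cohort 1 and without a subtype in cohort 2), and the glial classes were astrocyte-like, oligodendrocyte-precursor-like, oligodendrocyte-like and microglia-like. The SedGH library of cohort 2 was the shallowest, and the RunGH library of cohort 1 held 48 nuclei with striatal markers, which are described with *Drd2*. Any 2 libraries shared between 5 and 22 cell barcodes, at most 0.428% of the smaller library. A level is given in CPM, the UMIs of a gene divided by all UMIs of the same nuclei on the usual CPM scale, with its SD over the 6 libraries. Summed over a whole library, fewer cells of a type and less RNA per cell cannot be told apart.

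Of the 9 genes, *Adra1a* gave 14783 UMIs over all nuclei, *Adrb1* 5553, *Adra1b* 5551, *Drd1* 1193, *Adra1d* 484, *Drd2* 331, *Drd5* 74, *Adra2a* 63 and *Drd4* 28. Every gene was detected in every library. Levels of different genes are compared per kilobase here, because nuclear RNA is rich in introns and a long gene gives more UMIs. Per kilobase of gene, *Adrb1* was highest over all nuclei at 2.64 CPM, then *Drd1* at 1.36, *Adra1a* at 0.542, *Adra1b* at 0.213, *Adra1d* at 0.145 and *Drd5* at 0.142. Below these stood *Adra2a* at 0.0622, *Drd4* at 0.0356 and *Drd2* at 0.0219 CPM per kilobase of gene. Per kilobase of exon the order changed, with *Adrb1* at 8.52, *Adra1a* at 8.45, *Adra1b* at 7.97 and *Drd1* at 1.69 CPM, so that the placing of the long alpha-1 genes depends on the length chosen. In the mm10 gene models, introns make up 93.6% of *Adra1a*, 97.3% of *Adra1b* and 96.2% of *Drd2*, against 19.8% of *Drd1* and none of *Drd5* and *Adra2a*.

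**Figure D1:**
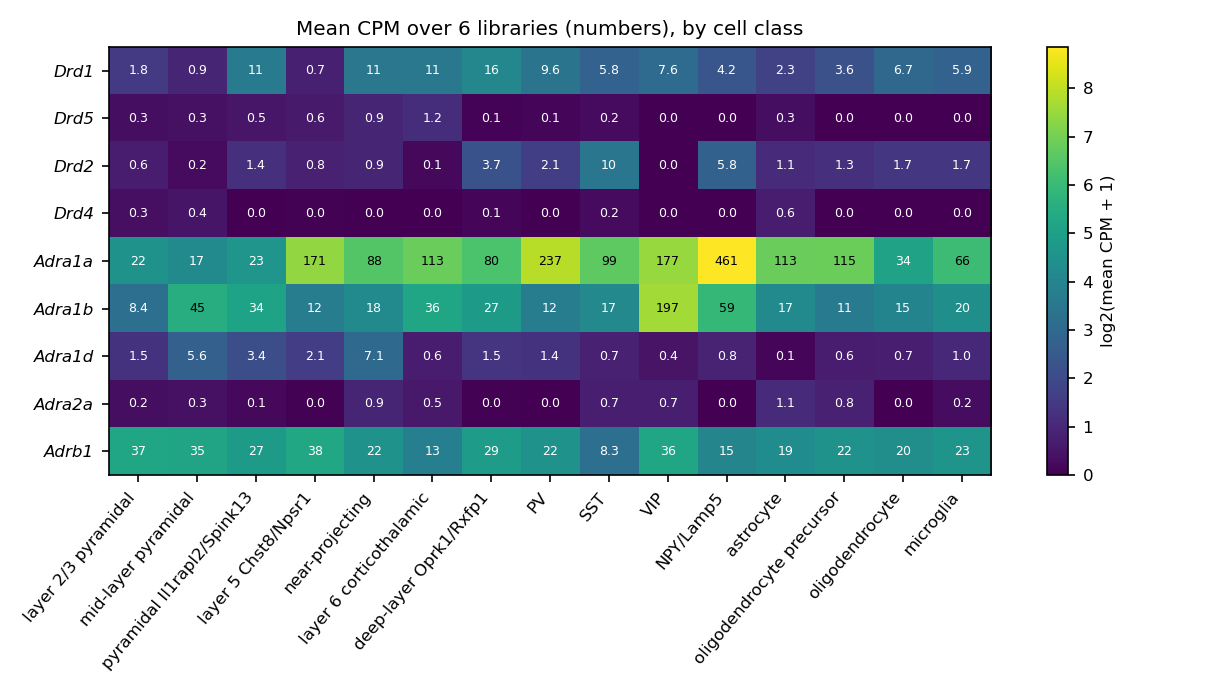
Mean level of each of the 9 genes (rows) in the 15 cell classes (columns) over the 6 libraries. Colour is log2(CPM + 1) and the printed number is the mean CPM. *Adra1a* is highest in NPY/Lamp5-like nuclei at 461 CPM, *Adra1b* in VIP-like nuclei at 197 CPM, *Drd1* in the deep-layer-like class at 16.1 CPM and *Drd2* in SST-like nuclei at 10.2 CPM.

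How the receptor genes are spread over cell types was compared class by class. Each class was set against the mean of the other 14 with the library as a block, in edgeR's quasi-likelihood test on summed counts with Benjamini-Hochberg adjustment over all genes tested. *Drd1*, *Adra1a*, *Adra1b* and *Adrb1* passed the filter on low counts in this fit. They gave 60 tests, of which 41 passed an adjusted p of 0.05, 23 of them higher and 18 lower. Of all gene-by-class tests, 36.9% passed (20.3% higher and 16.6% lower). The classes were built from other genes of the same nuclei, and a p-value here measures the spread between pooled libraries.

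*Adra1a*, on chromosome 14 (66635251 to 66771168, plus strand, mm10), encodes the alpha-1A receptor. Over the 6 libraries, its level in NPY/Lamp5-like inhibitory neurons had a lowest value of 324, a median of 465.8 and a highest of 621 CPM. In PV-like neurons the corresponding values were 206, 244 and 263 CPM, and in VIP-like neurons 146, 170 and 230 CPM. The NPY/Lamp5-like range did not overlap either of the others, and in every library the NPY/Lamp5-like value was the highest of the 3. The layer 5-like class was the highest of the pyramidal classes at 136, 174 and 196 CPM. Layer 2/3-like nuclei (11.8, 20.8 and 32.0 CPM) and mid-layer-like nuclei (11.6, 15.4 and 24.1 CPM) were the lowest. Between these extremes lay layer 6 corticothalamic-like nuclei at 113 ± 11.9 CPM, astrocyte-like nuclei at 113 ± 17.8, SST-like at 98.7 ± 27.6, near-projecting-like at 88.5 ± 9.17 and deep-layer-like at 79.6 ± 14.7 (SD, n = 6).

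Against the other classes, *Adra1a* was higher by 2.56 ± 0.10 (log2, SE) in NPY/Lamp5-like nuclei (adjusted p = 2.1e-41), by 1.61 ± 0.09 in PV-like, 1.12 ± 0.15 in VIP-like and 1.26 ± 0.07 in layer 5-like nuclei. Layer 6 corticothalamic-like (0.59) and astrocyte-like nuclei (0.39) also passed as higher. It was lower in mid-layer-like (-2.20 ± 0.10), layer 2/3-like (-1.87) and *Il1rapl2*-led pyramidal nuclei (-1.79) and in oligodendrocyte-like nuclei (-1.31). In a comparison of neighbouring classes in the order of mean level, NPY/Lamp5-like exceeded PV-like by 0.94 ± 0.33 (log2, SD) and PV-like exceeded VIP-like by 0.41 ± 0.26, both in 6 of 6 libraries, whereas VIP-like and layer 5-like did not differ beyond their spread (0.07 ± 0.26, higher in 3 of 6). The layer 5-like class held 23.0% of all *Adra1a* UMIs in 8.51% of the nuclei, and NPY/Lamp5-like nuclei held 5.49% in 1.16%.

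Depth differs between libraries and classes, so the share of nuclei with a UMI was taken after thinning each nucleus to 1000 UMIs. Nuclei with fewer UMIs were left out. All of these lay in SedGH of cohort 2 and were 882 of its 5826 nuclei. They included 21 of its 42 VIP-like, 29 of its 76 NPY/Lamp5-like and 61 of its 99 astrocyte-like nuclei. For *Adra1a*, 35.3% ± 6.51 (SD, n = 6) of NPY/Lamp5-like nuclei had at least 1 UMI, against 65.6% without thinning. PV-like nuclei reached 19.3%, VIP-like 15% and layer 5-like 14.4%. In oligodendrocyte-like nuclei, a class that should lack most neuronal transcripts, the share was 3.42%, and in microglia-like nuclei it was 6.46%. The *Il1rapl2*-led share of 2.23%, the layer 2/3-like share of 2.06% and the mid-layer-like share of 1.45% lay below these and are read as background. SST-like (8.01%), deep-layer-like (7.69%) and near-projecting-like shares (7.36%) exceeded the microglia-like one by less than its SD over libraries (2.92).

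*Adra1b*, on chromosome 11 (43774606 to 43901210, minus strand), encodes the alpha-1B receptor and had a different order of classes. In VIP-like neurons the 6 libraries gave a lowest value of 149, a median of 193 and a highest of 257 CPM, and the NPY/Lamp5-like class came next at 45.8, 55.3 and 80.4 CPM. Every VIP-like value lay above every value of every other class. The mid-layer-like class followed at 34.0, 42.3 and 60.1 CPM, then layer 6 corticothalamic-like at 35.9 ± 9.30 and *Il1rapl2*-led nuclei at 33.8 ± 8.30 (SD, n = 6). The lowest mean was that of layer 2/3-like nuclei at 8.42 ± 3.24 CPM, with layer 5-like (12.3) and PV-like nuclei (12.4) close above it.

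VIP-like neurons exceeded the other classes in *Adra1b* by 3.11 ± 0.14 (log2, SE, adjusted p = 5.11e-38). NPY/Lamp5-like (1.28), mid-layer-like (1.06 ± 0.07), layer 6 corticothalamic-like (0.69), *Il1rapl2*-led (0.66) and deep-layer-like nuclei (0.30) were also higher. Layer 2/3-like (-1.49), oligodendrocyte-precursor-like (-1.14), layer 5-like (-1.05), PV-like (-0.91), SST-like (-0.54), astrocyte-like (-0.52) and near-projecting-like nuclei (-0.48) were lower. The calls in deep-layer-like, SST-like, near-projecting-like and astrocyte-like nuclei were each lost in 1 or 2 of 15 alternative settings, with adjusted p up to 0.319. VIP-like nuclei exceeded NPY/Lamp5-like nuclei, the next class in order, by 1.71 ± 0.28 (log2, SD) in 6 of 6 libraries. After thinning, 14.9% ± 2.69 of VIP-like nuclei had an *Adra1b* UMI, compared with 4.50% of mid-layer-like, 3.72% of NPY/Lamp5-like, 1.79% of oligodendrocyte-like and 1.70% of microglia-like nuclei. The layer 5-like (1.16%), PV-like (0.967%) and layer 2/3-like shares (0.800%) lay below the last of these and are read as background.

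The balance of the 2 genes was also taken within the same nuclei. *Adra1a* made up a median of 95.5% of the summed *Adra1a* and *Adra1b* UMIs in PV-like nuclei (92.2% to 97.5% over the libraries), 92.9% in layer 5-like nuclei (91.1% to 96.1%) and 88.7% in NPY/Lamp5-like nuclei (86.8% to 90.1%). In VIP-like nuclei it was 49.2% (38.8% to 56.2%), in *Il1rapl2*-led nuclei 44.0% (30.3% to 51.6%) and in mid-layer-like nuclei 29.0% (22.2% to 31.3%). The mid-layer-like range lay below the ranges of the other classes named here except that of the *Il1rapl2*-led nuclei, which it overlapped. The *Adra1a* UMIs of mid-layer-like and *Il1rapl2*-led nuclei and the *Adra1b* UMIs of PV-like and layer 5-like nuclei were read as background above, so that no expression of that gene is read from these shares. Both genes are long and mostly intronic, but their UMIs were not corrected for length in this share.

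*Adra1d*, on chromosome 2 (131545850 to 131562283, minus strand), encodes the third alpha-1 receptor and overlaps a gene on the opposite strand, *Gm14285*, in the annotation. It was found mainly in pyramidal neurons, which held 94.0% of its 484 UMIs, 184 of them in mid-layer-like nuclei. Near-projecting-like nuclei had the highest mean, with 1.78 CPM in the lowest library, 8.33 at the median and 10.6 in the highest. Mid-layer-like nuclei had 2.39, 5.85 and 7.81 CPM, and the 2 ranges overlapped. Astrocyte-like nuclei gave 1 UMI in all 6 libraries together. With no filter on low counts, *Adra1d* was called higher in near-projecting-like (2.57 on the log2 scale), mid-layer-like (2.49), *Il1rapl2*-led (1.88), layer 5-like (1.06) and layer 2/3-like nuclei (0.69), and lower in astrocyte-like nuclei (-2.52). After thinning, the *Adra1d* share was 0.467% ± 0.482 (SD, n = 6) in near-projecting-like, 0.451% in mid-layer-like and 0.482% in *Il1rapl2*-led nuclei. Oligodendrocyte-like (0.269% ± 0.658) and microglia-like shares (0.256% ± 0.628) were lower and rest on 1 UMI each. The near-projecting-like and *Il1rapl2*-led shares exceeded them by less than their SD over libraries. Layer 2/3-like (0.148%, 77 UMIs) and layer 5-like shares (0.0661%, 41 UMIs) lay below them. Glial shares from 1 UMI cannot show whether those levels are background, and no expression is read from the layer 2/3-like and layer 5-like shares. In the fit with no filter, the 9 receptor genes gave 53 calls in 135 tests, against 19.5% of all tests.

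*Adrb1*, on chromosome 19 (56722199 to 56733113, plus strand), encodes the beta-1 receptor. Layer 5-like nuclei had 30.9 CPM in the lowest library, 38.5 at the median and 43.9 in the highest, and layer 2/3-like nuclei had 30.5, 37.2 and 44.9. These ranges were nearly the same. VIP-like nuclei came next in mean level at 36.3 CPM, with library values from 21.3 to 55.2, and did not differ from layer 2/3-like nuclei beyond their spread (layer 2/3-like minus VIP-like was -0.05 ± 0.46 on the log2 scale, SD, above 0 in 3 of 6). The mid-layer-like range of 26.4 to 42.3 CPM overlapped all of these. SST-like neurons had the lowest values at 4.45, 8.17 and 13.7 CPM, and none reached the layer 5-like range. *Adrb1* was higher than in the other classes by 0.91 (log2) in layer 5-like, 0.83 in layer 2/3-like, 0.77 in mid-layer-like, 0.67 in VIP-like, 0.45 in deep-layer-like and 0.42 in *Il1rapl2*-led nuclei, and lower by -1.34 in SST-like, -0.64 in layer 6 corticothalamic-like and -0.54 in astrocyte-like nuclei. The VIP-like call (adjusted p = 0.0279) was lost in 6 of 15 alternative settings, with adjusted p up to 0.27. After thinning, 4.02% ± 0.847 of layer 5-like, 3.64% of layer 2/3-like, 3.54% of mid-layer-like and 2.69% ± 2.97 of VIP-like nuclei had a UMI. The shares were 2.22% ± 1.23 in oligodendrocyte-like, 2.19% ± 1.30 in microglia-like and 1.21% in SST-like nuclei. The VIP-like, *Il1rapl2*-led (2.87%) and deep-layer-like shares (2.72%) exceeded both glial shares by less than the glial SD. PV-like (2.17%), near-projecting-like (1.90%), layer 6 corticothalamic-like (1.35%) and NPY/Lamp5-like shares (1.09%) lay below both.

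**Figure D2:**
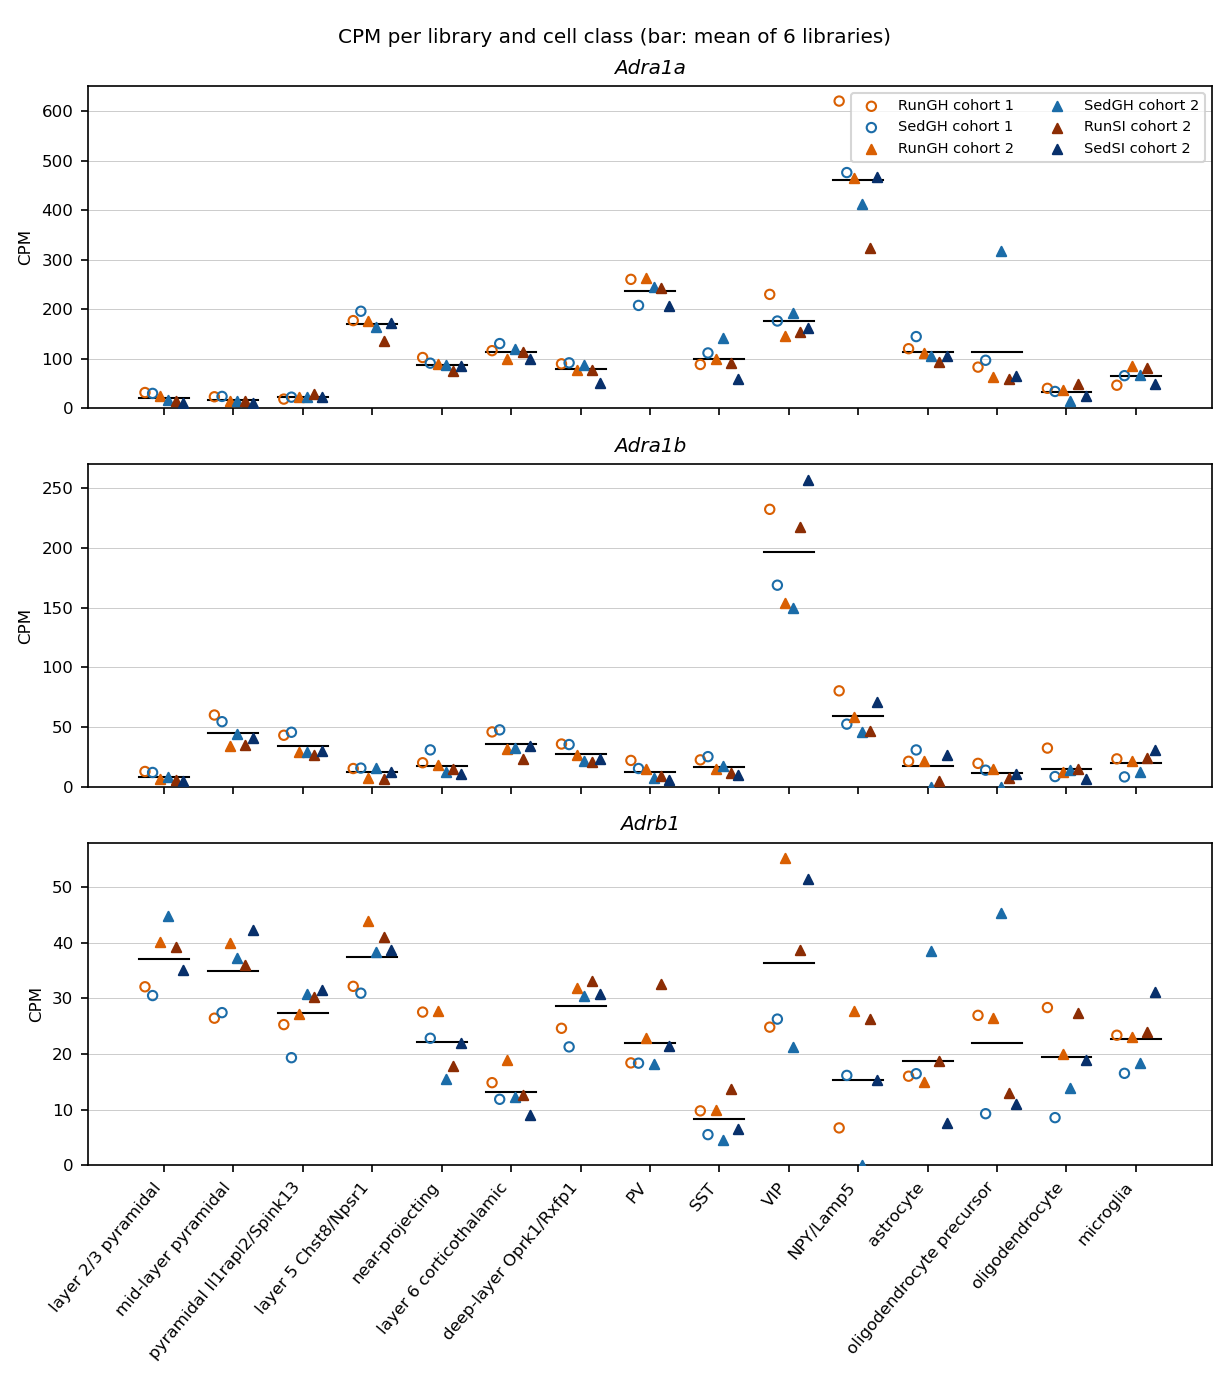
CPM of *Adra1a*, *Adra1b* and *Adrb1* (one panel each) in the 15 cell classes. Each point is 1 library, circles for cohort 1 and triangles for cohort 2, and the bar is the mean of 6 libraries. NPY/Lamp5-like nuclei lead *Adra1a* (324 to 621 CPM), VIP-like nuclei lead *Adra1b* (149 to 257 CPM), and the *Adrb1* values of layer 5-like and layer 2/3-like nuclei lie in the same range.

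Among the dopamine receptor genes, *Drd1*, on chromosome 13 (54051183 to 54055705, minus strand), encodes the D1 receptor. It was highest in the deep-layer-like class, with 6.90 CPM in the lowest library, 15.8 at the median and 31.8 in the highest. *Il1rapl2*-led nuclei had 1.74, 11.7 and 21.5 CPM, layer 6 corticothalamic-like nuclei 5.5, 12.3 and 14.0, and near-projecting-like nuclei 3.18, 9.06 and 20.5. These 4 ranges overlapped, and in each of them the 2 libraries of cohort 1 were the lowest. Layer 2/3-like nuclei reached no more than 2.90 CPM, mid-layer-like nuclei 1.67 and layer 5-like nuclei 2.22. Consequently layer 2/3-like nuclei held 5.87% of the *Drd1* UMIs although they were 21.7% of the nuclei, and deep-layer-like nuclei held 17.9% although they were 6.82%.

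*Drd1* was higher than in the other classes by 1.86 ± 0.16 (log2, SE) in deep-layer-like (adjusted p = 4.54e-18), 1.26 in *Il1rapl2*-led, 1.22 in layer 6 corticothalamic-like, 1.11 in near-projecting-like and 0.86 in PV-like nuclei. It was lower in layer 5-like (-2.45), mid-layer-like (-2.41), layer 2/3-like (-1.47) and astrocyte-like nuclei (-1.28). The PV-like call was lost without the cohort 2 RunGH library (adjusted p = 0.113), and the astrocyte-like call in 3 of 15 alternatives (adjusted p up to 0.154). Within libraries, the deep-layer-like level exceeded the *Il1rapl2*-led level by 0.79 ± 0.65 (log2, SD) in 6 of 6. The *Il1rapl2*-led, layer 6 corticothalamic-like and near-projecting-like classes, next to each other in the order, did not differ beyond their spread.

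The low values of *Drd1* were set beside those of glial classes and of background barcodes. After thinning, 1.26% ± 0.63 of deep-layer-like nuclei had a *Drd1* UMI, as did 1.28% of *Il1rapl2*-led, 1.18% of near-projecting-like, 1.08% of layer 6 corticothalamic-like and 0.897% of PV-like nuclei, and the shares in oligodendrocyte-like and microglia-like nuclei were 0.957% and 0.607%. The oligodendrocyte-like share differed from the deep-layer-like share by less than its SD over libraries. The PV-like, layer 2/3-like (0.180%), layer 5-like (0.0945%) and mid-layer-like shares (0.0610%) lay at or below the oligodendrocyte-like share. That share has an SD of 1.26 and only 11 UMIs before thinning, against 49 UMIs in PV-like nuclei. A glial share with that spread cannot show whether the PV-like level is background, and no expression of *Drd1* is read from any of these shares. In background barcodes, which had fewer UMIs than the nuclei and can hold free RNA as well as shallow or damaged nuclei (a median of 82 to 1202 UMIs, highest in cohort 1), *Drd1* stood at 3.64 to 15.2 CPM, and the level over all nuclei was 0.583 to 0.810 times that. For *Adra1a* this ratio was 1.22 to 1.47, for *Adra1d* 1.20 to 2.30, for *Drd2* 0.938 to 1.44, for *Adra1b* 0.607 to 1.13 and for *Adrb1* 0.501 to 0.879. *Drd5*, *Adra2a* and *Drd4* had ratios under 1 in every library.

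**Figure D3:**
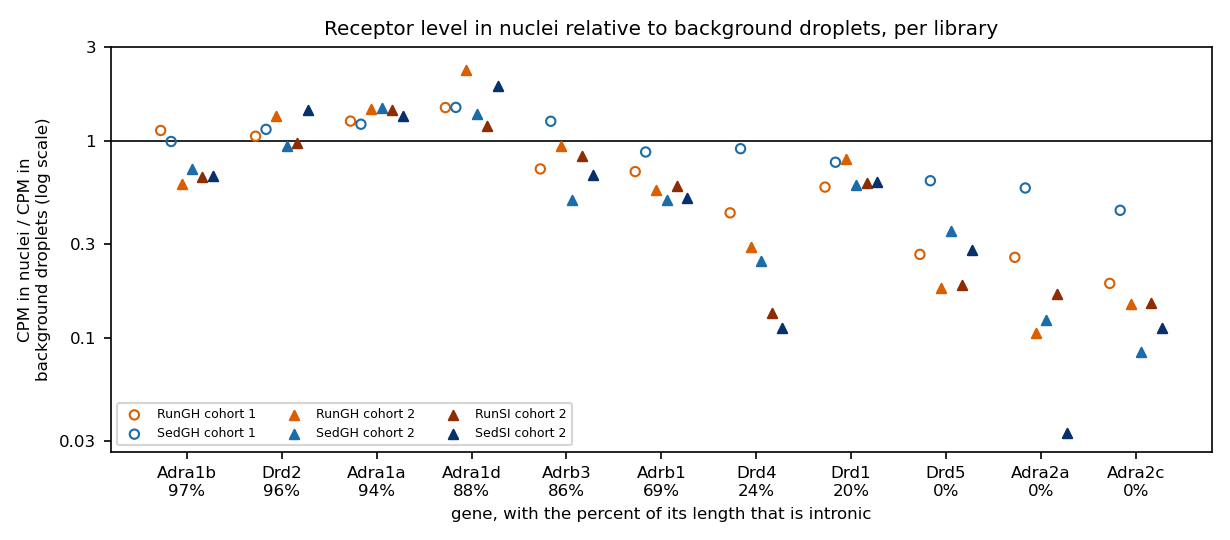
Level in nuclei divided by the level in background barcodes of the same library (log axis) for 11 receptor genes, ordered by the percent of the gene that is intron. Each point is 1 library. *Adra1a* lies above 1 in all 6 libraries, and *Drd1* between 0.583 and 0.810.

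A layer 6b-like class formed only in cohort 2 and held 3.77% of the *Drd1* UMIs in 0.484% of the nuclei. Its *Drd1* level was 60.4 CPM in RunSI (33 UMIs, 95% exact Poisson interval 41.6 to 84.8), 44.5 in SedSI (6 UMIs, 16.3 to 96.8) and 42.6 in RunGH (6 UMIs, 15.6 to 92.7). SedGH had no *Drd1* UMI in its 12 layer 6b-like nuclei, where the interval reaches 126 CPM. Such intervals cover counting error only. In each of the 3 libraries with UMIs the layer 6b-like level was above the deep-layer-like level of the same library, although in RunGH and SedSI its interval reached below it.

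*Drd2*, on chromosome 9 (49340627 to 49408177, plus strand), encodes the D2 receptor, and its 331 UMIs were unevenly placed. SST-like neurons had 4.94 CPM in the lowest library, 8.84 at the median and 18.8 in the highest, from 49 UMIs, and held 14.8% of the counts in 2.62% of the nuclei. Deep-layer-like nuclei had 1.27, 3.63 and 6.94 CPM and held 20.2% in 6.82%. NPY/Lamp5-like nuclei averaged 5.79 ± 6.25 CPM from 9 UMIs. No *Drd2* UMI was found in VIP-like nuclei of any library, where 3 UMIs would have been 6.77 to 64 CPM. Layer 6 corticothalamic-like nuclei gave 3 UMIs in all. In the fit with no filter, *Drd2* was higher by 3.32 ± 0.33 (log2, SE) in SST-like nuclei (adjusted p = 1.26e-22), 2.14 in deep-layer-like (adjusted p = 8.8e-13) and 2.15 in NPY/Lamp5-like nuclei (adjusted p = 0.00599). After thinning, 0.671% ± 0.685 (SD, n = 6) of SST-like, 0.742% ± 1.15 of NPY/Lamp5-like and 0.382% ± 0.170 of deep-layer-like nuclei had a *Drd2* UMI, compared with 0.396% of microglia-like and 0.140% of oligodendrocyte-like nuclei. The deep-layer-like share, from 67 UMIs before thinning, lay at or below the microglia-like one, which has an SD of 0.721 and only 5 UMIs before thinning. A glial share with that spread cannot show whether the deep-layer-like level is background, and no expression of *Drd2* is read from the deep-layer-like share. The SST-like and NPY/Lamp5-like shares exceeded the microglia-like one by less than their SD over libraries. SST-like nuclei had a *Drd1* level of 5.82 CPM that gave no call.

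A small cluster with markers of striatal projection neurons was present almost entirely in the cohort 1 RunGH library, with 48 nuclei there and 1 in SedGH of cohort 1. In the RunGH library it held 45 of the 155 *Drd2* UMIs, at 175 CPM, and 6 *Drd1* UMIs, at 23.3 CPM. With these nuclei the *Drd2* level of that library was 2.96 CPM over all nuclei, and without them it was 2.11 CPM. The cluster is not among the 15 classes.

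**Figure D4:**
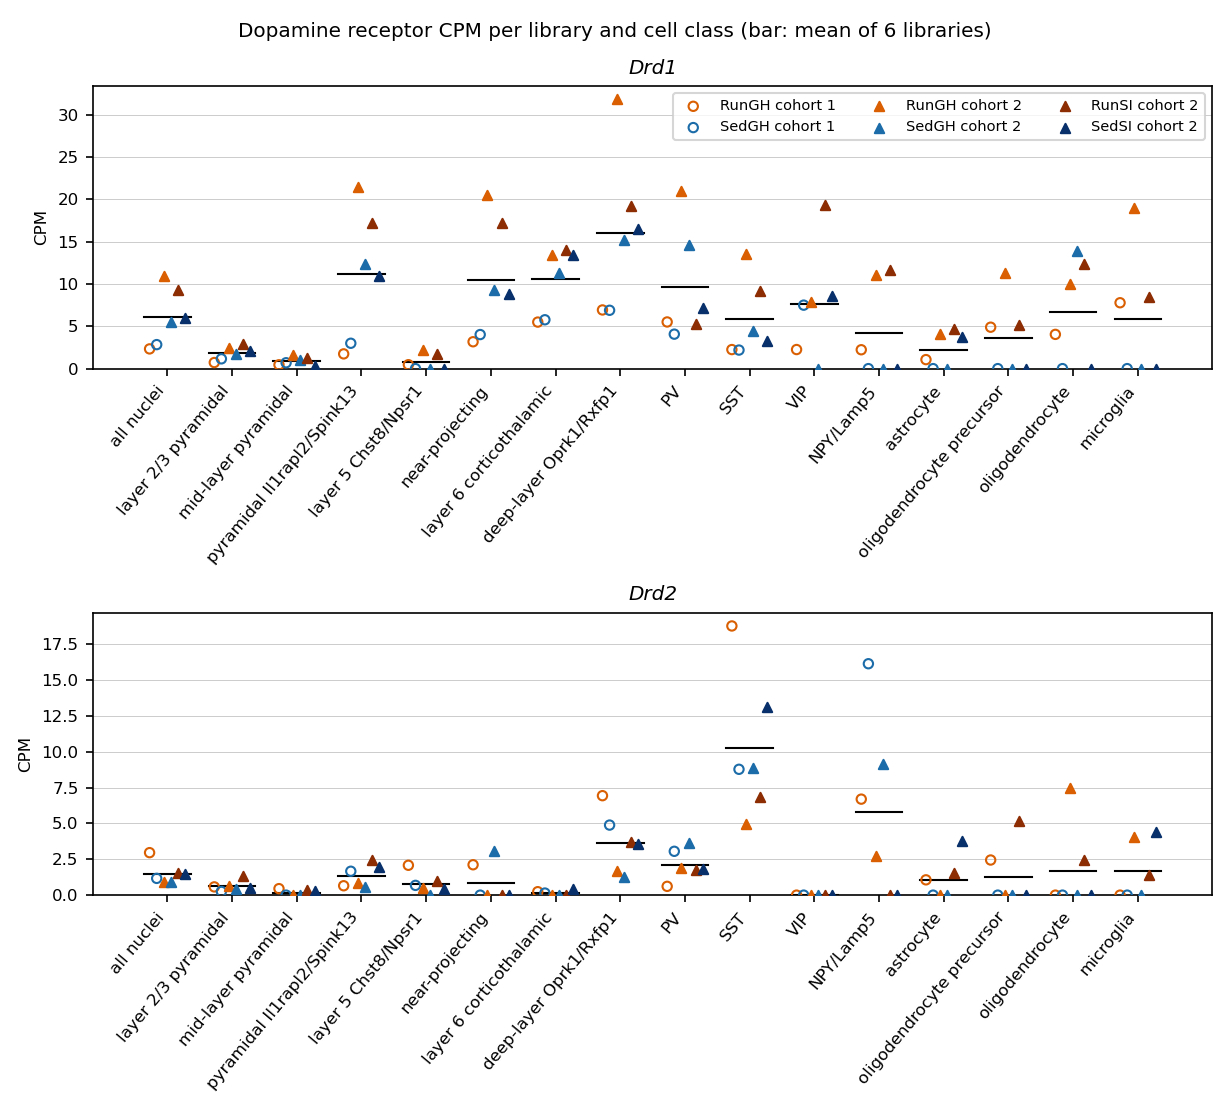
CPM of *Drd1* and *Drd2* over all nuclei and in the 15 cell classes. Each point is 1 library, circles for cohort 1 and triangles for cohort 2, and the bar is the mean of 6 libraries. In the deep-layer-like class the 2 cohort 1 libraries have 6.90 and 6.94 CPM of *Drd1*, under the 15.2 to 31.8 CPM of cohort 2.

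The remaining 3 genes were close to the limit of detection. *Drd5*, on chromosome 5 (38319367 to 38322518, plus strand, with *Gm26560* on the opposite strand), encodes the D5 receptor. It had 74 UMIs, 23 of them in layer 6 corticothalamic-like nuclei at 1.25 ± 0.920 CPM (SD, n = 6), and none in VIP-like, NPY/Lamp5-like, oligodendrocyte-precursor-like, oligodendrocyte-like or microglia-like nuclei. *Drd4*, on chromosome 7 (141292006 to 141296464, plus strand), encodes the D4 receptor, and 22 of its 28 UMIs were in layer 2/3-like (12) and mid-layer-like nuclei (10). *Adra2a*, on chromosome 19 (54044151 to 54048982, plus strand), encodes the alpha-2A receptor. Of its 63 UMIs, 44 were in pyramidal nuclei, among them 12 in layer 2/3-like and 10 in layer 6 corticothalamic-like nuclei. Astrocyte-like nuclei held 6, at 1.13 ± 1.81 CPM, and PV-like, NPY/Lamp5-like and oligodendrocyte-like nuclei held none. Only the fit with no filter tested these genes by class. There *Drd5* was higher in layer 6 corticothalamic-like nuclei by 2.56 (log2, adjusted p = 6.51e-05), *Drd4* in mid-layer-like (2.07, adjusted p = 0.00414) and layer 2/3-like nuclei (1.83, adjusted p = 0.00639), and *Adra2a* in astrocyte-like nuclei (2.25, adjusted p = 0.0151). The *Adra2a* call rests on 6 UMIs. After thinning, its astrocyte-like share was 0.0358% ± 0.0876 (SD, n = 6), against 0.152% in SST-like nuclei and 0.0380% over all nuclei. In background barcodes *Adra2a* stood at 0.434 and 0.820 CPM in cohort 1 and 2.17 to 3.91 in cohort 2.

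Across the 6 genes with at least 300 UMIs, 84 pairs of neighbouring classes were compared by the exact two-sided sign-flip permutation test over libraries, whose smallest possible p is 0.03125. None passed after Benjamini-Hochberg adjustment, where the smallest value was 0.146. Pairs of *Drd2* and *Adra1d*, and others of small classes, are not read, because with few or no UMIs their direction is set by the added 0.5 counts and the size of the class. The order of neighbours is therefore a description, whereas the differences between a class and the mean of the rest are those of the fit.

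The effect of the maternal running wheel was taken as Run against Sed, with cohort and housing in the model, which left 2 residual degrees of freedom. With no second library of a group in a cohort, these also hold any change of the Run effect with cohort or housing. No receptor gene passed the test. Of 47 tests by class, made on 6 of the genes, 0 passed an adjusted p of 0.05 in edgeR and 0 in DESeq2, where edgeR called 0.056% of all gene-by-class tests. At an unadjusted p under 0.05 there were 2, where 6.63% of all tests passed. They were *Adra1d* in mid-layer-like nuclei (-0.75, adjusted p = 0.614) and *Adra1b* in layer 5-like nuclei (-0.68, adjusted p = 0.732). Over all nuclei 0 of 8 genes passed in edgeR, and 0% of all genes did, with 0 of the 8 at an unadjusted p under 0.05. *Drd4* had too few counts for any of these fits.

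The sizes over all nuclei, as log2 Run against Sed with the SE, were small for the genes with most counts. *Adra1a* stood at -0.08 ± 0.08 (adjusted p = 0.789), *Adrb1* at -0.00 ± 0.11 (0.997) and *Adra1b* at -0.17 ± 0.11 (0.694). Those with fewer counts were less precise, with *Drd1* at 0.39 ± 0.24 (adjusted p = 0.681), *Drd2* at 0.52 ± 0.37 (0.705, and 0.32 without the striatal-like nuclei, 48 of which lie in a Run library), *Adra1d* at -0.32 ± 0.24 (0.724), *Adra2a* at 0.75 ± 0.59 (0.739) and *Drd5* at -0.82 ± 0.38 (0.628). *Drd5* was the only gene of these whose Sed value exceeded every Run value in both cohorts, at 0.115 CPM in RunGH and 0.306 in SedGH of cohort 1, and 0.415 and 0.512 in the Run against 0.713 and 0.628 in the Sed libraries of cohort 2. In cohort 2, 19.3% of all genes had both Sed libraries above both Run libraries, and the *Drd5* values rest on 6 to 20 UMIs a library. The share of all genes with this order in cohort 1 as well is not given here.

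*Drd1* gave different values in the 2 cohorts. In cohort 1 its level over all nuclei was 2.33 CPM in RunGH and 2.84 in SedGH. In cohort 2 it was 10.9 in RunGH, 9.26 in RunSI, 5.53 in SedGH and 5.99 in SedSI. The Run libraries of cohort 2 thus lay above its Sed libraries, whereas in cohort 1 the Sed value was the higher one. In cohort 2, 46% of all genes had both Run libraries above both Sed libraries over all nuclei. In pyramidal neurons *Drd1* was 1.89 CPM in RunGH and 2.91 in SedGH of cohort 1, and 10.2, 9.43, 5.58 and 6.11 in RunGH, RunSI, SedGH and SedSI of cohort 2, where 44.5% of all genes had both Run libraries above both Sed libraries.

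The difference between the cohorts in the Run effect was tested as an interaction, with 1 residual degree of freedom. The spread in this test comes from the 4 libraries of cohort 2, where it also holds any change of the Run effect with housing. Cohort 1, with 1 Run and 1 Sed library, was assumed to vary like them. For *Drd1* in pyramidal neurons it was 1.23 ± 0.34 (log2, adjusted p = 0.0118), the 1 gene of 8 tested there to pass, where 11.4% of all genes passed. Over all nuclei it was 0.95 ± 0.31 (adjusted p = 0.051), and 0 of 9 genes passed in edgeR, with 2 at an unadjusted p under 0.05, against 10.4% of all genes passing. By class, 0 of 53 tests passed in edgeR, against 2.54% of all tests, with 3 at an unadjusted p under 0.05, against 11.7% of all tests. DESeq2 was not run for the interaction. Leaving out either cohort 1 library, after which the Run effect rests on cohort 2, gave *Drd1* a Run effect of 0.69 over all nuclei (adjusted p = 0.00873 without RunGH and 0.00351 without SedGH). *Adra1b* in layer 5-like nuclei likewise stood at -1.16 and -1.15 (adjusted p = 0.0162 and 0.00885). In the same fits 14.1% of all genes without RunGH and 16% without SedGH passed over all nuclei, and 4.65% and 5.06% in layer 5-like nuclei. In cohort 2 the Run libraries had medians of 3396.5 and 4033 UMIs a nucleus and the Sed libraries 1637 and 3600. All barcodes together held 62273299 UMIs in RunGH and 69344415 in RunSI, against 19134955 in SedGH and 35993055 in SedSI. Total depth thus differed between the Run and Sed libraries of cohort 2, and the part of depth in the result was not tested. The background level of *Drd1* in cohort 2 was 13.5 and 15.2 CPM in Run against 9.23 and 9.73 in Sed, and its part in the result was not tested. The make-up of the pyramidal pool also differed. Layer 6 corticothalamic-like nuclei were 643 of 6238 in RunGH and 983 of 4095 in SedGH of cohort 1, and 1372 of 7673 and 576 of 4900 in cohort 2. *Il1rapl2*-led nuclei were 582 and 347 in the same libraries of cohort 1, and 1059 and 760 in cohort 2. The part of this make-up in the result was not tested.

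**Figure D5:**
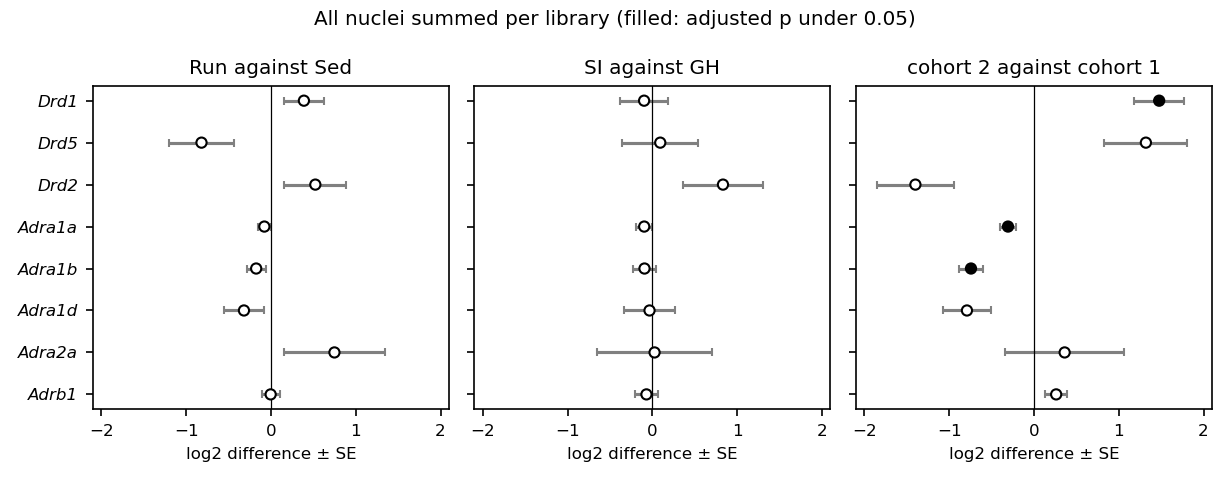
Log2 difference with its SE (error bar) over all nuclei for 8 of the receptor genes, in 3 panels for Run against Sed, SI against GH and cohort 2 against cohort 1. A filled point has an adjusted p under 0.05. Filled points appear only in the cohort panel, for *Drd1* at 1.48, *Adra1b* at -0.74 and *Adra1a* at -0.31.

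Single housing after weaning was compared with group housing within the same model. It rests on 2 SI and 2 GH libraries of cohort 2. Of 47 tests by class 0 passed, where 0.0021% of all gene-by-class tests did, and over all nuclei 0 of 8 genes passed in edgeR, where 0% of all genes did and 0 of the 8 had an unadjusted p under 0.05. DESeq2 also made 0 calls by class. At an unadjusted p under 0.05 there were 2 tests by class, against 2.3% of all tests, *Adra1a* in layer 2/3-like (-0.60 ± 0.19) and *Drd1* in PV-like nuclei (-1.63 ± 0.64). Over all nuclei the differences were -0.10 ± 0.28 for *Drd1*, 0.83 ± 0.47 for *Drd2*, 0.09 ± 0.45 for *Drd5*, -0.10 ± 0.10 for *Adra1a*, -0.09 ± 0.14 for *Adra1b*, -0.03 ± 0.30 for *Adra1d*, 0.03 ± 0.67 for *Adra2a* and -0.07 ± 0.13 for *Adrb1* (log2, SE).

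Several receptor genes differed between the cohorts. *Drd1* was higher in cohort 2, and *Adra1b* and *Adra1a* were lower. Of the 47 tests by class 14 passed, 5 higher and 9 lower in cohort 2, against 27.6% of all gene-by-class tests (15.2% higher and 12.5% lower). A share of that size is close to that of all genes. All 5 higher calls were of *Drd1* and all 9 lower calls were of *Adra1a*, *Adra1b*, *Adra1d* and *Drd2*.

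For *Drd1*, the levels in *Il1rapl2*-led nuclei were 1.74 and 3.0 CPM in RunGH and SedGH of cohort 1 and 21.5, 12.4, 17.2 and 10.9 in RunGH, SedGH, RunSI and SedSI of cohort 2. The cohorts did not overlap, as was the case in this direction for 35.5% of all genes in this class, and the difference was 2.77 ± 0.39 (log2, SE, adjusted p = 0.000185). In deep-layer-like nuclei, the values were 6.94 and 6.90 CPM in cohort 1 and 31.8, 15.2, 19.2 and 16.5 in cohort 2, where 30.2% of all genes were apart in this way, a difference of 1.70 ± 0.32 (adjusted p = 0.00139). Near-projecting-like (2.00 ± 0.62, adjusted p = 0.0278), PV-like (1.79 ± 0.60, adjusted p = 0.0227) and layer 6 corticothalamic-like nuclei (1.02 ± 0.29, adjusted p = 0.0245) made up the rest, and these 3 calls were lost in 7 or 8 of 15 alternatives each. The PV-like share did not exceed the oligodendrocyte-like one, which rests on few UMIs itself. The PV-like clusters of the cohorts did not match in full, since a cluster led by *Gm16685*, *Corin* and *Nr4a2* was PV-like in cohort 1 (197 nuclei, with *Agbl1* and *Rab37*), and one with the first 3 of these genes was left without a subtype in cohort 2 (101 nuclei). With the 6 libraries clustered together, the PV-like difference was 1.96 (adjusted p = 0.0104). Over all nuclei, where 39.3% of all genes passed and 3 of 8 receptor genes did, *Drd1* was higher by 1.48 ± 0.30 (adjusted p = 0.0123). It lost this call without the cohort 2 RunGH library (1.08, adjusted p = 0.0666), as did the deep-layer-like call (adjusted p = 0.182). The *Il1rapl2*-led call held in 15 of 15 alternatives. *Drd1* in the background barcodes moved the same way, from 4.00 and 3.64 CPM in cohort 1 to 9.23 to 15.2 CPM in cohort 2, and its part in the result was not tested.

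*Adra1b* over all nuclei was 35.4 and 35.3 CPM in RunGH and SedGH of cohort 1, and 23.0, 24, 19.7 and 24.3 in RunGH, SedGH, RunSI and SedSI of cohort 2. The cohorts did not overlap, as was the case for 25.8% of all genes in this direction, and the difference was -0.74 ± 0.14 (adjusted p = 0.00975), a call that held in 15 of 15 alternatives. By class it was lower in layer 2/3-like (-0.98), *Il1rapl2*-led (-0.76), mid-layer-like (-0.75), layer 6 corticothalamic-like (-0.65) and deep-layer-like nuclei (-0.64), with adjusted p between 0.00585 and 0.0481, although its layer 2/3-like level is read as background. *Adra1a* was lower in mid-layer-like (-0.87, adjusted p = 0.00976) and layer 2/3-like nuclei (-0.77, adjusted p = 0.00844), the classes in which its level is read as background. Over all nuclei it was 75.8 and 86.3 CPM in cohort 1 and 73.3, 71.8, 70.1 and 65.1 in cohort 2 (-0.31 ± 0.10, adjusted p = 0.0493), and that call was lost in 9 of 15 alternatives. *Adrb1* did not pass (0.26 ± 0.13, adjusted p = 0.16), with 25.6 and 22.4 CPM in cohort 1 and 30.1 to 32.1 in cohort 2.

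*Adra1d* in layer 2/3-like nuclei (-2.07, adjusted p = 0.0185) and *Drd2* in deep-layer-like nuclei (-2.1, adjusted p = 0.0214) rested on few UMIs. Their shares there did not exceed the higher of the oligodendrocyte-like and microglia-like shares, which rest on few UMIs themselves. In the layer 2/3-like nuclei of cohort 2 there were 6, 1, 9 and 6 *Adra1d* UMIs in RunGH, SedGH, RunSI and SedSI, against 38 and 17 in cohort 1. In the deep-layer-like nuclei, *Drd2* gave 4, 1, 9 and 5 UMIs in cohort 2 against 31 and 17 in cohort 1. In cohort 1, *Drd2* over all nuclei was 2.96 and 1.17 CPM, of which the striatal-like nuclei of RunGH are part. The cohort difference over all nuclei was -1.40 ± 0.45 (adjusted p = 0.0542) with these nuclei and -1.08 (adjusted p = 0.0616) without them.

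The number of cohort calls by class depended on the library set. It was 8 without the cohort 1 RunGH library, where 24% of all gene-by-class tests passed, and 16 without its SedGH library, where 28.6% did. Without the cohort 2 RunGH library it was 2 (10.7% of all tests), without its SedGH library 8 (18.6%), and without RunSI or SedSI 9 (20.7% and 20.2%). DESeq2, which called 12.5% of all tests, made 4 calls, *Drd1* in *Il1rapl2*-led and deep-layer-like nuclei, *Adra1a* in layer 2/3-like and *Adra1b* in mid-layer-like nuclei. Subtracting a free RNA profile left 6 calls with the low-barcode profile (19.3% of all tests) and 7 with the background-barcode profile (19.1%).

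Among further receptors of the 2 families, *Adra2b* had no UMI in any library, and *Drd3* had 10 in all. *Adra2c*, an alpha-2 receptor, was 0.306 and 0.250 CPM in RunGH and SedGH of cohort 1 and 3.24, 1.60, 2.84 and 2.32 CPM in RunGH, SedGH, RunSI and SedSI of cohort 2, a difference of 2.95 ± 0.34 (log2, adjusted p = 0.00241). *Adrb3*, a beta receptor with *Gm45470* on the opposite strand, was 1.07 and 1.14 CPM in cohort 1 and 5.08, 2.94, 3.99 and 3.72 CPM in cohort 2, a difference of 1.71 ± 0.28 (adjusted p = 0.00647). For both genes the cohorts did not overlap, and 39% of all genes were likewise higher in cohort 2. For *Adra2c* the level in nuclei was below that in background barcodes in every library, and for *Adrb3* in every library except SedGH of cohort 1. The background levels moved the same way as the nuclei. *Adra2c* went from 1.62 and 0.564 CPM in cohort 1 to 18.9 to 21.8 in cohort 2. *Adrb3* went from 1.485 and 0.906 CPM to 4.75 to 5.84. Their part in the result was not tested.

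The pathway lists were read beside the 39.3% of all genes that passed for cohort over all nuclei, a share that takes higher and lower calls together. The genes that make, carry and break down catecholamines gave 6 genes to test, and 2 of them were higher in cohort 2, *Slc18a2*, the vesicular monoamine transporter (1.36), and *Maoa*, a monoamine oxidase (0.74). Of 10 G protein alpha subunits, *Gnai1* was higher (0.45) and *Gnao1* (-0.87) and *Gnaz* (-0.39) were lower. Adenylyl cyclases, which make cyclic AMP, had 6 of 8 lower and 0 higher, with a median of -0.79, led by *Adcy6* (-1.50), *Adcy5* (-1.42) and *Adcy1* (-1.12), where the median of all genes tested was 0.00. Genes of protein kinase A and phosphodiesterases had 4 of 12 lower, such as *Pde1b* (-0.80), *Pde2a* (-0.77) and *Prkar1b* (-0.75), with a median of -0.31. Phospholipase C and protein kinase C had 4 of 7 lower, *Prkcb* (-0.60) and *Prkca* (-0.59) among them, and *Plcb2* higher (1.51), with a median of -0.47. The kinases, arrestins and regulators that switch receptors off had 3 of 10 lower, *Arrb1* (-1.20), *Grk2* (-0.87) and *Grk3* (-0.78), and 1 higher, with a median of -0.33. For Run against Sed and SI against GH, 0 genes of every list passed over all nuclei. In the interaction of Run and cohort, where 10.4% of all genes passed over all nuclei, calls were made for 2 of 10 G protein alpha subunits, 2 of 8 adenylyl cyclases, 1 of 12 protein kinase A and phosphodiesterase genes, 1 of 7 phospholipase C and protein kinase C genes, 2 of 10 genes that switch receptors off and 0 of 6 synthesis and breakdown genes. *Ppp1r1b*, which encodes the dopamine-regulated phosphoprotein DARPP-32 (1.14), *Rgs14* (0.97), *Gna11* (0.66) and *Adcy1* (0.38) had the higher Run effect in cohort 2, and *Grk5* (-0.60), *Adcy8* (-0.44), *Gnaq* (-0.37) and *Plcb1* (-0.37) the lower one.

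By class, where 20.3% of all tests were called higher and 16.6% lower, the adenylyl cyclases had 47 higher and 32 lower calls in 120 tests, the protein kinase A and phosphodiesterase genes 45 and 38 in 165, the G protein alpha subunits 32 and 29 in 135, phospholipase C and protein kinase C 25 and 27 in 75, the genes that switch receptors off 32 and 28 in 150, and the synthesis and breakdown genes 16 and 6 in 75. *Maob*, a monoamine oxidase, was higher in astrocyte-like nuclei by 4.10 (log2), and *Ddc*, which encodes the decarboxylase that makes dopamine, was higher in oligodendrocyte-precursor-like nuclei (5.18) and oligodendrocyte-like nuclei (5.0). In layer 6 corticothalamic-like nuclei, the genes with the smallest adjusted p in their lists were *Adcy1* (1.26), *Plcb4* (1.84), *Pde4d* (1.22) and *Rgs9* (1.74), each higher, while *Adcy8* (-1.14), *Prkca* (-1.42) and *Grk5* (-1.17) of the same lists were lower. In PV-like nuclei *Gnal*, the olfactory-type stimulatory alpha subunit, was higher (1.44) while *Adcy2* (-2.87) and *Pde4b* (-2.77) were lower. *Prkca*, a protein kinase C gene, was higher in near-projecting-like nuclei (1.5).

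Across the 15 classes, the levels of the genes with most UMIs were set beside all 12826 genes with at least 500 UMIs, by Pearson's r of log2(CPM + 1) as a description only. The 15 classes share their libraries and differ in depth. Nearest to *Adra1b* was *Mir670hg* (r = 0.93), and *Gm38604* (0.79) was also among the nearest. Nearest to *Adra1a* were *Zfp687* (0.86), *Airn* (0.83) and *Slc25a12* (0.83), to *Adrb1* *Kcnip4* (0.82), *Ajap1* (0.80) and *Mn1* (0.79), and to *Drd1* *Slc24a2* (0.79), *Gm33373* (0.74) and *Rb1cc1* (0.70). Among the receptor genes themselves r was 0.21 for *Adra1a* and *Adra1b*, -0.33 for *Adra1a* and *Adrb1*, -0.32 for *Drd1* and *Adrb1*, 0.22 for *Drd1* and *Adra1b*, 0.14 for *Drd1* and *Adra1a* and 0.11 for *Adra1b* and *Adrb1*.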

How the data were processed

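Single-nucleus libraries (droplet chemistry, 3′ version 3 per the labels) of pooled prelimbic tissue were aligned by the authors to mm10 with introns counted, using Cell Ranger 6.0.0 per the submitters' processing notes. The deposited counts are raw UMI counts of all barcodes for 32285 genes. The matrix headers name another Cell Ranger version.

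Barcodes were kept as nuclei with 500 to 4000 genes, at most 1% mitochondrial UMIs, and at least the 99th percentile of UMIs of the largest barcodes divided by 10, a minimum of 621 to 3156 UMIs by library. Each cohort was clustered apart in scanpy 1.11.5 (Pearson residuals with theta 100, 3000 genes without the receptors and their pathway lists, 35 components, 20 neighbours, Leiden resolution 0.6 with leidenalg 0.10.2). A cluster was named from at least 3 markers of a list. The naming rule was adjusted after the clusters were seen, and the free RNA profile from background barcodes (30 UMIs up to the nucleus minimum) and the setting without striatal-like nuclei were added after the data were seen. The receptor genes, pathway lists and tests were chosen with earlier results of these data known. Scrublet, at an expected rate of 6%, marked 0 to 675 nuclei a library. It marked 0 of 5826 in SedGH of cohort 2, where it did not work, so doublets were removed only in an alternative.

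UMI counts summed per library and class were tested in edgeR 4.0.16 (quasi-likelihood, TMM, filterByExpr, R 4.3.3), with DESeq2 1.42.0 as an alternative. Classes needed at least 10 nuclei in every library. The model held cohort, maternal environment and housing. Cohort is a shared experiment, so it enters as a block: the replicate numbers are the cohort numbers, and the cohort difference of the RunGH libraries and that of the SedGH libraries correlated at 0.733 over 16645 genes. Libraries are pools of 3 males, and no group had a second library within a cohort. The spread behind the p-values of the group comparisons is therefore not that of repeated pools alone. It also holds any change of the Run effect with cohort or housing. Benjamini-Hochberg adjustment ran over all genes tested in a class, with a threshold of 0.05. For the order of classes, log2 CPM carried a pseudocount of 0.5 counts, which lifts low counts. Named genes were the 9 receptors, further receptors of the 2 families, at most 3 called genes per list and comparison with the smallest adjusted p, and the 3 genes most like each receptor with at least 500 UMIs. The interaction lists name every called gene, at most 2 a list. Some genes that this rule names are not reported here. Scripts were tested on simulated counts. Coordinates are those of the GENCODE gene models on mm10.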

Additional observations from a re-analysis of the deposited data

Results flagged for a closer look

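Among 68 sets of 4 group-housed libraries of a receptor gene in a class, 7 had 1 library far from the other 3 by Dixon's criterion, which flags about 1 set in 20 by chance. *Drd2* over all nuclei was 2.96 CPM in RunGH of cohort 1, against 0.882 to 1.17 in the others, and this library holds the 48 striatal-like nuclei. *Adra1a* in pyramidal nuclei was 75.6 CPM in SedGH of cohort 1, against 58.5 to 61.1. RunGH of cohort 2 stood apart for *Adra1b* in layer 5-like nuclei (7.16 CPM, others 15.3 to 16.1), *Adrb1* in PV-like nuclei (22.9 CPM, others 18.3 to 18.4) and *Adrb1* in VIP-like nuclei (55.2 CPM, others 21.3 to 26.3). SedGH of cohort 2, the shallowest library, stood apart for *Adrb1* in astrocyte-like nuclei (38.4 CPM, others 14.9 to 16.5) and for *Adra1a* in oligodendrocyte-precursor-like nuclei (318 CPM, others 64.2 to 97.2), where it has 21 nuclei.

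The Run effect on *Drd1* in pyramidal nuclei differed between the cohorts by 1.23 (log2, cohort 2 minus cohort 1) in the test of the interaction, which 11.4% of all genes passed there. Cohort 1 had 1 Run and 1 Sed library, and its spread was taken from cohort 2.

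Signal also appeared in clusters outside the 15 classes. In striatal-like nuclei of RunGH of cohort 1, *Drd2* was 175 CPM and *Drd1* 23.3 CPM. In layer 6b-like nuclei of cohort 2, *Drd1* was 42.6 CPM in RunGH (6 UMIs), 60.4 in RunSI (33 UMIs) and 44.5 in SedSI (6 UMIs).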

How the results depend on the processing

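The differences between cell classes were steady: of the 41 calls, 37 to 41 held when a library was left out. The other settings lost 4 calls, *Adrb1* in VIP-like nuclei with no filter and with the receptors kept for clustering, and *Drd1* in astrocyte-like nuclei with all libraries clustered together and with the receptors kept. For Run against Sed by class, calls ranged from 0 to 1 when a library was left out, the 1 being *Adra1b* in layer 5-like nuclei without either cohort 1 library. Over all nuclei and in pyramidal nuclei, *Drd1* also gained a Run call without either of these (0.69 and 0.64 without RunGH), where 14.1% and 15.2% of all genes passed in the same fits. Cohort calls by class were 14, and were 4 in DESeq2, 6 with the low-barcode profile subtracted, 7 with the background-barcode profile subtracted, and 2 (without RunGH of cohort 2) to 16 (without SedGH of cohort 1) when a library was left out. They were 8 without RunGH of cohort 1 or without SedGH of cohort 2, and 9 without RunSI or SedSI. The cause was not tested. Without thinning, shares of nuclei with a UMI were 65.6% for *Adra1a* in NPY/Lamp5-like, 38.5% for *Adra1b* in VIP-like, 18.2% for *Adrb1* in layer 5-like and 6.67% for *Drd1* in deep-layer-like nuclei, since deeper nuclei show more UMIs.

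Each value that changed sign was one over all nuclei that had not passed the test. The by-class values of Run against Sed and SI against GH, and the cohort values by class that had not passed, were recomputed only as counts of calls. For Run against Sed, *Drd2* over all nuclei was -0.0392 and -0.0378 without RunGH or SedGH of cohort 1 and up to 0.765 without another library. *Adrb1*, at -0.00254, was 0.00153 in DESeq2, 0.0236 with no filter, 0.0523 to 0.0575 with a cohort 2 library left out (-0.109 at the lowest with one of cohort 1), 0.0492 in group-housed libraries only, 0.00676 with at least 1000 genes, 0.00975 with doublets removed and 1.75e-05 without striatal-like nuclei. For SI against GH, with a library left out, values lay between -0.338 and 0.279 for *Adra1d*, -0.320 and 0.415 for *Drd5*, -0.250 and 0.0653 for *Adra1b*, -0.386 and 0.320 for *Drd1*, -1.74 and 0.584 for *Adra2a*, and -0.157 and 0.0160 for *Adrb1*. *Adra1d* was 0.0130 and 0.279 without SedGH or RunSI of cohort 2. *Drd5* was -0.320 without RunSI and -0.0774 with the low-barcode profile subtracted, *Adra1b* was 0.0653 without RunSI, and *Drd1* was 0.320 without RunGH of cohort 2 and 0.0173 without SedSI. *Adra2a* was -0.201 in DESeq2, -0.209 without RunGH of cohort 2, -1.74 without RunSI and -0.132 with at least 1000 genes. *Adrb1* was 0.0160 without SedGH of cohort 2 and 0.00973 without RunSI. For cohort 2 against cohort 1, *Adra2a* was -0.844 without RunGH of cohort 1 and 0.910 without its SedGH library.

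Without the cohort as a replicate block, 0 calls by class were made for Run against Sed and 0 for SI against GH, and the SI against GH values of *Drd2* (-0.0455), *Drd1* (0.481) and *Adrb1* (0.0557) took the other sign. Leaving out the block gained no call. With 1 library of a group in a cohort, leaving one out assumes that the lone library varies like the others. The *Drd4*, *Drd5* and *Adra2a* counts (28 to 74 UMIs) limit what could be seen of them.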
